A study of Homo sapiens with 12 samples.

Results

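QKI binding was described at 2 genes of 1 signalling pair, SLIT2, which encodes a secreted guidance ligand, and ROBO1, which encodes its receptor. The members were all clusters of the endogenous QKI libraries that the deposited annotation named SLIT2 or ROBO1, 967 in the first library and 763 in the second, together 1730 of 616191. SLIT2 had 389 and 350 of them and ROBO1 had 578 and 413. The pair was chosen by its number of peaks in the endogenous libraries, out of 16988 named genes, so endogenous values are given as a description with no test. The count behind that choice did not use the 4 libraries of tagged protein, which carry the tests. Earlier results of these data were known when members and gene lists were chosen.

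The study used eCLIP, in which proteins are crosslinked to RNA with ultraviolet light, immunoprecipitated, and the bound RNA sequenced beside a size-matched input of the same extract. It held 12 libraries from HEK293T cells, a human embryonic kidney line, also labelled HEK293xT, and the 6 inputs entered only through the deposited fold values. The question the title gives is how QKI, an RNA-binding protein of the STAR family with a KH domain, acts on splicing. The series' design note speaks instead of embryonic stem cells on the way to cardiomyocytes, which the labels of these samples do not.

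Each of the 3 groups had 2 immunoprecipitation libraries. Wild type libraries came from cells given a plasmid for myc-tagged QKI-5 by transient transfection, at 10 µg, and mutant libraries from cells given myc-QKI-5 carrying the substitutions K120A and R124A. Both were cultured for 72 hours and precipitated with anti-MYC antibody. In the endogenous group, unmodified cells were precipitated with anti-QKI antibody. All cells were crosslinked at 254 nm with 400 mJ/cm2. The labels do not say that the transfected cells lacked their own QKI, nor whether the 2 libraries of each group are independent cultures. The p-values therefore reflect variation among these libraries alone, and it may be technical. Antibody and transfection differed between the tagged and endogenous groups, and their effects on a tagged-to-endogenous difference cannot be told apart.

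SLIT proteins are secreted, bind ROBO receptors on growing axons and migrating cells, and are best known for repelling axons at the midline. ROBO receptors have no enzymatic activity of their own and signal through partners that bind their cytoplasmic tail, among them adaptors, exchange factors and actin regulators. The pathway also takes part in the development of kidney and heart. QKI binds introns and 3′ UTRs, and QKI-5 is its mainly nuclear isoform. An intron of SLIT2 also hosts the microRNA gene MIR218-1, and ROBO1 has been reported as a target of miR-218.

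The 2 mature microRNAs of MIR218-1 are shown because endogenous QKI clusters named for this hairpin lay inside SLIT2. The annotation put those clusters close to the microRNA or at a 3′ splice site. Whether any of them overlaps the printed bases was not tested, since the genome builds differ. Sequences are from RefSeq (GRCh38.p14), 5′ to 3′, with the seed, bases 2 to 8, in capitals.
hsa-miR-218-5p: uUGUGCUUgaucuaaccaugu
hsa-miR-218-1-3p: aUGGUUCCgucaagcaccaugg
The arms have different seeds. Values for the clusters named for the hairpin are given with the SLIT2 sites.

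Values throughout are the authors' log2 fold of immunoprecipitation over input for a cluster, and enriched clusters are those that reach 3 in both log2 fold and −log10 p. Libraries listed between 226962 and 384347 clusters, and the sources used here do not give read depth. The tagged libraries list only clusters above input, whereas the endogenous libraries also list those at or below it, so a missing tagged cluster is either absent or not above input. Cell identity could not be checked by expression. None of 8 pluripotency marker genes had a cluster in either endogenous library, and 2 of 7 cardiomyocyte genes (ACTN2 and RYR2) had clusters in both. At ACTN2, 1 cluster was enriched in each.

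Endogenous QKI bound both genes at many intronic places. At SLIT2, 51 of 389 clusters were enriched in endogenous 1 and 50 of 350 in endogenous 2, which is 13.1% and 14.3%. At ROBO1 the counts were 37 of 578 and 41 of 413, which is 6.40% and 9.93%. Among all clusters the enriched share was 4.22% in endogenous 1 and 5.39% in endogenous 2, and since the genes were chosen for their peaks nothing is read from the comparison. Clusters at or below input numbered 60 and 41 at SLIT2, and 155 and 60 at ROBO1.

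The authors' list of reproducible peaks, which pools both endogenous libraries, held 46 peaks at SLIT2 and 34 at ROBO1. These were the second and the sixth highest counts of 3865 genes with a peak. Neighbouring peaks often touched, and peaks within 50 bases of each other were joined into 28 sites at SLIT2 and 23 at ROBO1. At SLIT2 12 sites held several peaks and at ROBO1 8 did, with at most 4 in a site. The clusters of SLIT2 spanned 367 kb of the plus strand (chr4:20255131-20621644, hg19), giving 12.6 peaks per 100 kb. Those of ROBO1 spanned 1168 kb of the minus strand (chr3:78646944-79815015), giving 2.91 peaks per 100 kb.

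By the deposited annotation, 39 of the 46 SLIT2 peaks were in distal introns, 6 in introns near a splice site and 1 at a 5′ splice site. Of the 34 ROBO1 peaks, 30 were in distal introns, 3 in introns near a splice site and 1 in the 3′ UTR. Coding exons carried clusters but no enriched one in either library: 4 and 2 clusters at SLIT2, and 2 and 5 at ROBO1. Over all genes, 1.07% and 1.31% of coding exon clusters were enriched, so counts this small cannot show a lack. The 3 SLIT2 clusters in the 5′ UTR in endogenous 1 had a median log2 fold of -2.37, below input. No cluster was listed on the opposite strand of either span in any of the 6 libraries, and the sources used here do not say whether the peak caller searched there.

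The endogenous libraries shared most strong clusters. Of the enriched SLIT2 clusters, 70.6% in endogenous 1 and 64.0% in endogenous 2 overlapped an enriched cluster of the other. At ROBO1 these shares were 83.8% and 68.3%. Over all listed clusters, 65.8% and 68.6% overlapped a cluster of the other library at SLIT2, and 40.5% and 53.5% at ROBO1.

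**Figure D1:**
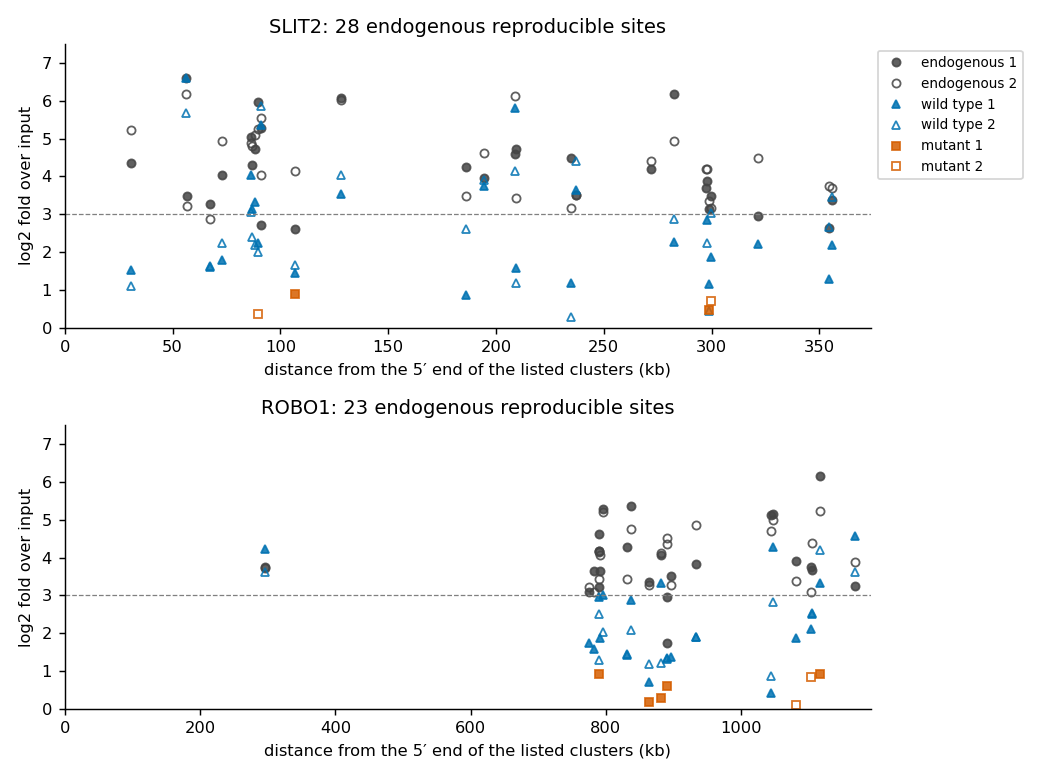
Log2 fold over input at the 28 SLIT2 and 23 ROBO1 endogenous sites, against distance from the 5′ end of each gene's listed clusters in kb; each point is 1 site in 1 library, filled for library 1 and open for library 2, and the dashed line marks a log2 fold of 3. SLIT2 sites lie along the whole span, 22 of the 23 ROBO1 sites lie from 775 kb on, and mutant points are few and below 1.

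The sites were placed differently along the genes. Cut into 5 equal stretches from the 5′ end, SLIT2 had 13, 13, 5, 6 and 9 reproducible peaks, so each stretch held some. ROBO1 had 0, 1, 0, 22 and 11. From the 5′ end, the first ROBO1 site was at 297 kb and the next at 775 kb, a stretch of the gene with no reproducible site between them. The 5′ stretches of ROBO1 did carry clusters, with 37, 36 and 17 listed in endogenous 1 against 292 in the fourth. Of these, 0, 2 and 0 were enriched. Endogenous 2 listed 15, 32 and 9 against 220, with 0, 1 and 0 enriched. Over all endogenous clusters 4.22% and 5.39% were enriched, so counts this small do not show a lack of enrichment. RefSeq (GRCh38.p14) lists 2 starts for ROBO1, 749 kb apart, and 1 for SLIT2. Whether the start used in these cells bears on the placement was not tested. In bulk cells, fewer cells with a transcript and less of it per cell cannot be told apart.

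The strongest SLIT2 site was chr4:20311200-20311382, in a distal intron and made of 3 peaks. Its log2 fold was 6.61 and 6.17 in the endogenous libraries and 6.61 and 5.68 in wild type, with no cluster in either mutant library. The endogenous and wild type libraries were all high there, and by these values the wild type range overlapped the endogenous one. Endogenous 2 had another cluster overlapping the site, at 7.35, with a lower −log10 p than the one used. With that value the ranges would only meet, at 6.61. The site at chr4:20346314-20346454 was likewise high in both groups, at 5.28 and 5.55 in endogenous and 5.35 and 5.87 in wild type, with none listed in the mutant.

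Other leading SLIT2 peaks were weaker in wild type. At chr4:20383266-20383400 the log2 fold was 6.08 and 6.02 in endogenous and 3.53 and 4.04 in wild type. At chr4:20537636-20537691 it was 6.18 and 5.61 against 2.25 and 2.88, and at chr4:20344692-20344798 it was 5.95 and 5.25 against 2.03 and 1.99. In these 3 the wild type and endogenous ranges did not overlap. They were named for their high endogenous fold, so nothing is read from that. Across the 23 SLIT2 sites listed in both wild type libraries, 2 had a wild type mean above the endogenous one. All sites came from the endogenous reproducible list, so nothing is read from that count either. The peak at chr4:20344692-20344798 was 1 of 2 SLIT2 peaks listed in mutant 2, at 0.35.

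At splice sites and exon ends, 1 SLIT2 site was enriched in both endogenous libraries. It lay at chr4:20492330-20492454, and the annotation assigned it to a 5′ splice site in endogenous 1 and a 3′ splice site in endogenous 2. Its log2 fold was 3.51 in both endogenous libraries and 3.64 and 4.39 in wild type, and the mutant libraries listed no cluster. Both wild type values were above both endogenous ones. A site in an intron near a splice site, chr4:20526987-20527134, went the other way, with 4.20 and 4.41 in endogenous and no cluster in any tagged library; it was singled out after its values were seen.

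The SLIT2 3′ UTR had 4 clusters in endogenous 1, of which 2 were enriched, and 2 in endogenous 2, of which 0 were. At the end of the listed clusters, chr4:20621545-20621555 had 3.45 in endogenous 1 and 2.73 in endogenous 2, and the adjoining chr4:20621556-20621644 had 2.97 and 2.73. The tagged clusters there had 2.63 and 2.56 with wild type and 2.61 with mutant 1, with −log10 p of 9.15, 7.68 and 3.20, and mutant 2 listed none. Mutant 1 thus lay between the wild type libraries in fold at this place. A second place, chr4:20570754-20570844, had 3.54 in endogenous 1 and 1.49 in endogenous 2 and no tagged cluster. Both were singled out after their values were seen.

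The clusters named hsa-mir-218-1 fall outside the name SLIT2 but inside its transcript. At chr4:20530481-20530559 the log2 fold was 3.63 in endogenous 1 and 4.52 in endogenous 2, enriched in both, and the annotation called it close to a microRNA in 1 library and a 3′ splice site in the other. The wild type libraries had 2.66 and 2.28 there, with −log10 p of 7.62 and 4.56, below the fold threshold for enrichment. The mutant libraries listed no cluster. The neighbouring bases, chr4:20530393-20530480, were lower at 1.76 and 1.89 in endogenous. The noncoding transcript SLIT2-IT1, also within SLIT2, had 5 clusters in endogenous 1 and 3 in endogenous 2, the highest at 1.56 in endogenous 2. The files hold no measure of the mature microRNAs. These clusters were singled out after their values were seen.

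The strongest ROBO1 site was chr3:78698897-78699027, in a distal intron and made of 3 peaks. Its log2 fold was 6.16 and 5.24 in endogenous, 3.32 and 4.19 in wild type, and 0.93 in mutant 1 with none in mutant 2. The 3 groups did not overlap there, but the site was named for its high endogenous fold, so nothing is read from its distance to the others. At chr3:78977488-78977619 the fold was 5.37 and 4.76 in endogenous and 2.87 and 2.07 in wild type, with no mutant cluster. Within the site at chr3:79019918-79020088, the peak at chr3:79019918-79020022 had 5.28 and 5.18 in endogenous and 0.73 and 2.02 in wild type, and the adjoining peak at chr3:79020023-79020088 had 5.09 and 5.21 against 3.0 and 2.02.

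The ROBO1 3′ UTR held 1 site enriched in both endogenous libraries, chr3:78646965-78647096, close to the 3′ end of the listed clusters. Its log2 fold was 3.26 and 3.89 in endogenous and 4.56 and 3.62 in wild type, and the mutant libraries listed no cluster. The endogenous and wild type ranges overlapped. At the ROBO1 site nearest the 5′ end, chr3:79518394-79518523, endogenous values were 3.75 and 3.73 and wild type values 4.22 and 3.61; this site was singled out after its values were seen. At another place, chr3:78709963-78710107, which the annotation put near a splice site and in endogenous 2 at a 5′ splice site, endogenous values were 3.67 and 4.37 and wild type values 2.50 and 2.53. The 3′ UTR site and the site nearest the 5′ end were the 2 ROBO1 sites with a wild type mean above the endogenous one.

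**Figure D2:**
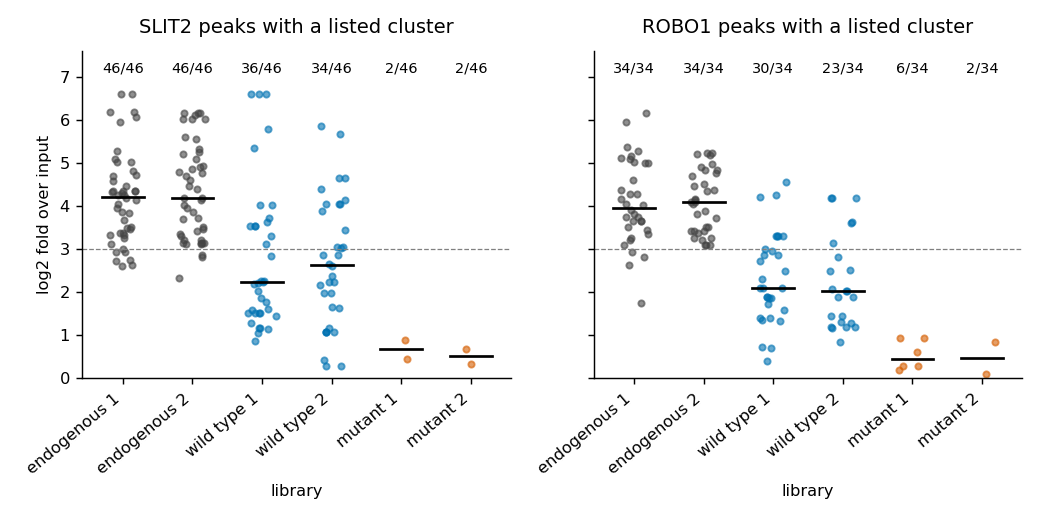
Log2 fold over input at the 46 SLIT2 and 34 ROBO1 endogenous reproducible peaks in each library; a point is a peak with a listed cluster, the black bar is the median of listed peaks, the fraction above gives listed of all peaks, and the dashed line marks 3. Wild type lists 36 and 34 SLIT2 peaks and 30 and 23 ROBO1 peaks, mutant 2 and 2, and 6 and 2.

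Tagged wild type QKI-5 was found at most endogenous peaks of both genes and the mutant at few. Of the 46 SLIT2 peaks, wild type 1 listed a cluster at 36 (78.3%, exact 95% interval 63.6 to 89.1) and wild type 2 at 34 (73.9%, 58.9 to 85.7). Each mutant library listed 2 (4.35%, 0.531 to 14.8). Of the 34 ROBO1 peaks, wild type 1 listed 30 (88.2%, 72.5 to 96.7), wild type 2 23 (67.6%, 49.5 to 82.6), mutant 1 6 (17.6%, 6.76 to 34.5) and mutant 2 2 (5.88%, 0.720 to 19.7). Intervals cover counting error only and treat peaks as independent. Neighbouring peaks can share a tagged cluster, so the intervals are likely too narrow. Over all 12409 endogenous reproducible peaks the listed share was 84.9% and 81.4% with wild type, and 9.9% and 10.3% with the mutant, inside every one of these intervals. The mutant clusters at these peaks had log2 folds from 0.11 to 0.93.

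A minority of those peaks were enriched in wild type. At SLIT2 the counts were 14 (30.4%) and 13 (28.3%) of 46, beside a background of 28.4% and 25.6%. At ROBO1 they were 5 (14.7%, 4.95 to 31.1) and 4 (11.8%, 3.30 to 27.5) of 34. The ROBO1 shares were below the background of 28.4% and 25.6%, which lay inside both intervals. No peak of either gene was enriched in a mutant library. If peaks were independent, that allows shares of up to 7.71% at SLIT2 and 10.3% at ROBO1, beside a background of 0.21% and 0.234%. Joined into sites, 7 of 28 SLIT2 sites and 2 of 23 ROBO1 sites were enriched in both wild type libraries, against 17.5% of all 9660 sites. The authors' wild type reproducible list overlapped 12 of the 46 SLIT2 peaks (26.1%) and 4 of the 34 ROBO1 peaks (11.8%), against 24.3% of all endogenous peaks. The mutant list held no peak at either gene.

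Counted over all clusters overlapping the members rather than over peaks, SLIT2 had 141 and 147 clusters in wild type, against 85 and 68 with the mutant. Of these, 10 and 10 were enriched with wild type, 0 and 0 with the mutant. ROBO1 had 150 and 160 in wild type, of which 5 and 4 were enriched. Its mutant libraries had 84 and 77, of which 0 and 1 were enriched. Enriched shares among all tagged clusters that overlapped an endogenous one were 5.02% and 4.98% with wild type, and 0.136% and 0.452% with the mutant. The groups did not overlap for either gene, by a mean of 10 more enriched clusters at SLIT2 and 4 more at ROBO1. An exact two-sided permutation test gave p = 0.33 for each, the smallest that 2 libraries against 2 can give. Tagged clusters elsewhere in the spans, 77 to 176 a library, included no enriched one. Over all tagged clusters, on or off an endogenous one, 2.07% and 1.89% were enriched with wild type, and 0.0405% and 0.304% with the mutant. The share off endogenous clusters alone was not computed, so nothing is read from this absence.

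Of the enriched wild type clusters at SLIT2, 9 of 10 in wild type 1 and 10 of 10 in wild type 2 lay on endogenous reproducible peaks. Over all enriched wild type clusters that overlapped an endogenous one, the share on such peaks was 65.0% and 56.8%. Since the genes were chosen for their endogenous peaks, nothing is read from this comparison. The SLIT2 exception was at chr4:20621439-20621493, where the endogenous 1 cluster was annotated to the 3′ UTR, with 3.80 in wild type 1, 1.72 in endogenous 1 and no cluster in the other 4 libraries. At ROBO1, 4 of 5 and 2 of 4 lay on such peaks. One place outside the list, chr3:79254089-79254203, was enriched in both wild type libraries at 4.0 and 4.19, while the endogenous libraries had 2.65 and 3.65. Another, chr3:78879815-78879905, had 4.14 in wild type 2, 2.11 in wild type 1, 0.41 in mutant 1, and 2.16 and 3.37 in endogenous. These 3 places were singled out after their values were seen.

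The single enriched mutant cluster at the pair was at chr3:79057926-79058052 in a stretch of ROBO1, with 4.01 in mutant 2 and a −log10 p of 3.74. Neither wild type library nor mutant 1 listed a cluster there, and endogenous 2 had -0.44, below input. The place was thus high in 1 library of 6.

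**Figure D3:**
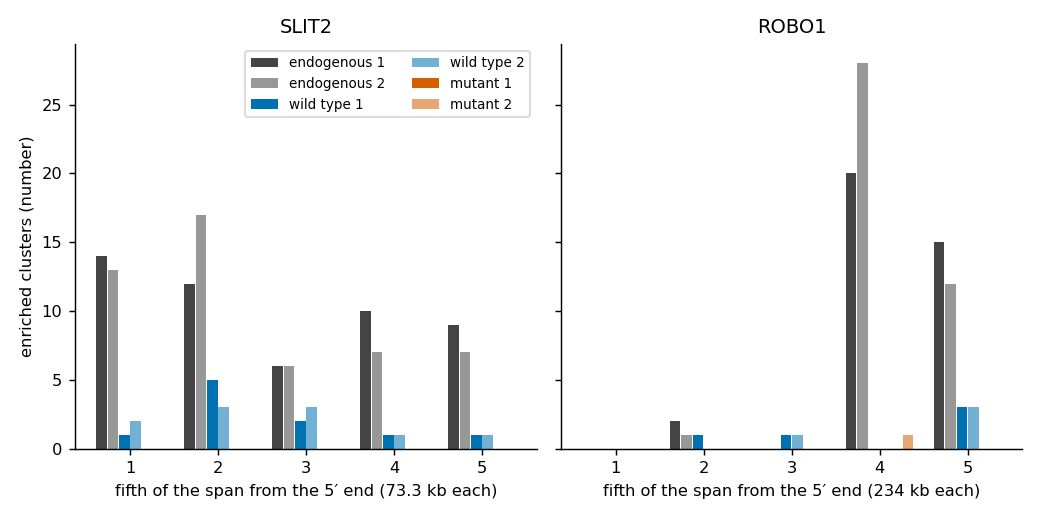
Number of enriched clusters per library in 5 equal stretches of each gene from the 5′ end, 73.3 kb each for SLIT2 and 234 kb each for ROBO1; bars start at 0 and the paler bar of each colour is library 2. In the fourth stretch of ROBO1 the endogenous libraries have 20 and 28, wild type 0 and 0, and mutant 2 has 1.

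Along ROBO1 the wild type and endogenous profiles differed in the fourth stretch, which held 15 of the 23 sites. Endogenous QKI had 20 of 292 and 28 of 220 clusters enriched there, beside 4.22% and 5.39% of all endogenous clusters. Wild type had 0 of 98 and 0 of 92. Among all wild type clusters that overlapped an endogenous one, 5.02% and 4.98% were enriched. The stretch was singled out after its values were seen. Wild type 1 had a cluster at 12 of those 15 sites with a median log2 fold of 1.80, and wild type 2 at 9 with a median of 1.44. Their highest values were 3.32 and 2.50, and the median −log10 p was 1.37 and 1.15. In the fifth stretch wild type had 3 and 3 enriched clusters where endogenous had 15 and 12. SLIT2 had enriched wild type clusters in all 5 stretches, with 1, 5, 2, 1 and 1 in wild type 1 and 2, 3, 3, 1 and 1 in wild type 2. The difference between stretches was not tested.

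**Figure D4:**
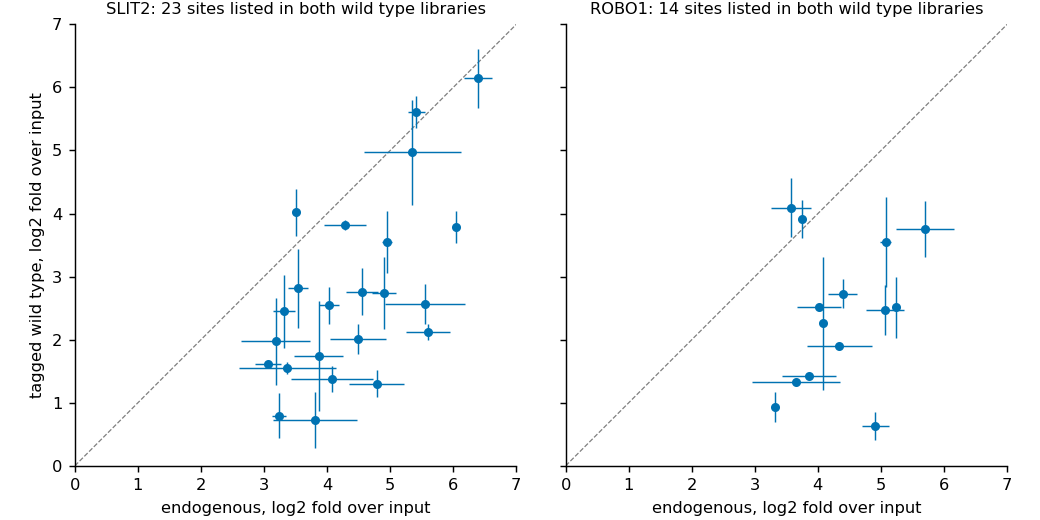
Mean log2 fold over input in tagged wild type against endogenous QKI at the 23 SLIT2 and 14 ROBO1 sites listed in both wild type libraries; bars run from the lower to the higher of the 2 libraries and the dashed line marks equal values. At each gene 2 sites lie above the line, and all sites come from the endogenous reproducible list.

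At SLIT2 the sites that were strong with endogenous QKI tended to be strong with tagged wild type, with a Spearman rank correlation of 0.55 over the 23 sites listed in both wild type libraries. At ROBO1 it was 0.18 over 14 sites. The wild type libraries ranked the sites alike at both genes, with a rank correlation of 0.77 at SLIT2 and 0.78 at ROBO1. Sites of a gene share libraries, inputs and neighbours, so these values are descriptions. Over listed sites, the median wild type log2 fold was 2.23 and 2.61 at SLIT2 and 2.00 and 2.02 at ROBO1. Endogenous medians were 4.12 and 4.30, and 3.75 and 4.11. The sites were chosen on endogenous values, so nothing is read from the gap.

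Per gene, the log2 fold was averaged over all its endogenous reproducible peaks, with 0 where a tagged library listed none. For SLIT2 the values were 2.19 and 2.00 with wild type, and 0.03 and 0.02 with the mutant, which is 2.09 ± 0.13 against 0.03 ± 0.00 (SD, n = 2 each). For ROBO1 they were 2.06 and 1.53, and 0.09 and 0.03, which is 1.79 ± 0.38 against 0.06 ± 0.05. The groups were far apart for both. The endogenous means were 4.27 ± 0.09 and 4.10 ± 0.00.

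In limma's fit over the 1424 genes with at least 3 such peaks, SLIT2 was higher in wild type by 2.07 on the log2 scale (SE 0.14, 95% interval 1.66 to 2.47, adjusted p = 0.00124). ROBO1 was higher by 1.73 (SE 0.24, interval 1.05 to 2.42, adjusted p = 0.00436). This was shared by 1346 of the 1424 genes (94.5%), with 0 lower and none lower at an unadjusted p under 0.05. The median difference over all genes was 2.12, with quartiles of 1.61 and 2.69, so SLIT2 ranked 758 and ROBO1 983. Since tagged libraries list no cluster below input, mutant means cannot go below 0. With each library centred on its median over all genes, the differences turned to -0.14 for SLIT2 (adjusted p = 0.426) and -0.47 for ROBO1 (adjusted p = 0.142). Relative to the shift shared by all genes, neither gene passed the threshold.

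**Figure D5:**
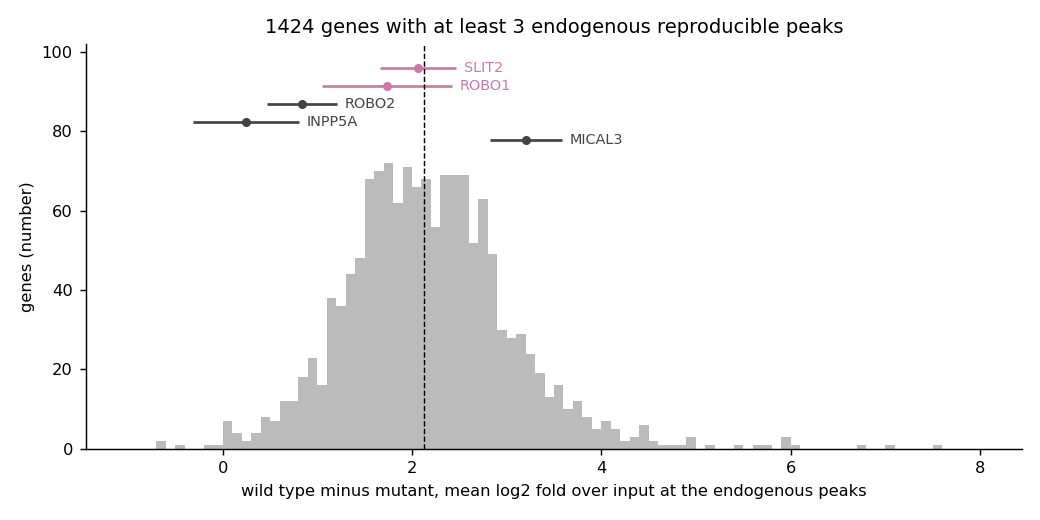
Distribution over 1424 genes of the wild type minus mutant difference in mean log2 fold over input at the endogenous peaks, in bins of 0.1; points with bars give 5 genes with 95% intervals from limma, and the dashed line is the median of 2.12. SLIT2 at 2.07 and ROBO1 at 1.73 lie within the bulk, INPP5A at 0.25 and ROBO2 at 0.84 below it and MICAL3 at 3.21 above.

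Single places gave less. Regions listed in all 4 tagged libraries numbered 5481, and limma called 36 of them higher in wild type (0.657%) and 1 lower. SLIT2 had 11 such regions and ROBO1 6, and none passed, with 1 and 0 at an unadjusted p under 0.05. The lowest adjusted p was 0.240 at chr4:20432188-20432396 in SLIT2, where wild type had 1.56 and 2.69 and the mutant 0.12 and 0.30; it was singled out after its values were seen. The differences did not lean towards wild type. They were positive at 5 of the 11 SLIT2 regions (median -0.0048) and 2 of the 6 ROBO1 regions (median -0.22), beside 1966 of all 5481 (median -0.26). A requirement of a mutant cluster leaves out most endogenous peaks. With a missing cluster set to 0 at all endogenous peaks, 27 of 46 SLIT2 peaks and 14 of 34 ROBO1 peaks passed as higher in wild type, beside 50.6% of 12409.

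The genes most like the pair were found over 206 genes with at least 10 reproducible peaks, by distance over the 6 libraries of log2(enriched clusters + 1). FHIT was nearest to SLIT2 at a distance of 0.34, with 60 and 48 enriched clusters in endogenous, 10 and 12 in wild type and 0 in each mutant library. ANKRD17 followed at 0.84. WWOX was nearest to ROBO1 at 0.53, with 32 and 34 in endogenous, 7 and 4 in wild type and 0 and 1 for the mutant, and DIP2C followed at 0.88. SLIT2 and ROBO1 were not among each other's 5 nearest genes. Of other genes with many endogenous peaks, INPP5A had 38 peaks and a wild type minus mutant difference of 0.25 (adjusted p = 0.278, limma), and MICAL3 had 48 peaks and a difference of 3.21 (adjusted p = 0.00106).

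The other pathway genes had fewer enriched endogenous clusters, the kind of count by which the pair was chosen. Of the other ligand genes, SLIT1 had no enriched cluster in any library, SLIT3 had 1 in each endogenous library, and NELL2, a ligand of ROBO3, had 3 and 0. None of the 3 had one in a tagged library. The receptor gene ROBO2 had 6 and 4 enriched clusters in endogenous and 0 in each tagged library, among 360 and 168 endogenous clusters. Its mean fold at 5 peaks was 0.78 and 0.90 with wild type and 0 with the mutant, a difference of 0.84 (SE 0.13, adjusted p = 0.00581, limma). ROBO3 had 5 and 2 endogenous clusters and none enriched, and ROBO4, an endothelial receptor, and the netrin receptor gene DCC had no cluster in either endogenous library. Transcript levels were not measured, so a gene without clusters may be unexpressed or unbound.

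Among the 7 co-receptor and partner genes, 2 were enriched in both endogenous libraries, GPC1 and SDC3, which encode heparan sulfate proteoglycans, with 1 cluster each. Among the 25 genes listed as cytoplasmic partners, which also include the cell-surface protein genes CDH2 and CXCR4, 17 were. SRGAP1, which encodes a cytoplasmic protein that binds ROBO1, had 2 enriched clusters in each endogenous and each wild type library. SOS1, an exchange factor recruited to ROBO, had 6 and 6 in endogenous and 3 and 1 in wild type. ABL2, a tyrosine kinase, had 6 and 4, and 2 and 1. CTNNB1, which encodes beta-catenin, had 5 and 4, and 4 and 2. ENAH, an actin regulator, had 4 and 5 in endogenous and none in wild type.

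In all, 23 of the 40 pathway genes had an enriched cluster in both endogenous libraries, against 21.2% of all named genes, and 11 in both wild type libraries, against 10.9%. Gene length and expression differ between such lists and were not matched. Enriched mutant clusters were found at 3 of the 40, all in mutant 2. ROBO1 had 1, the plexin gene PLXNA1 had 2 and the deubiquitinase gene USP33 had 2. Among all clusters, mutant 2 had 829 enriched and mutant 1 had 94. The share of all named genes with an enriched mutant cluster was not computed. In the gene fit, 10 of the 40 could be tested, the pair among them. All 10 were higher in wild type, as were 94.5% of all 1424 genes. Their median difference was 2.02 beside 2.12 over all genes. The largest of the 8 besides the pair were ABL2 with 2.71 (adjusted p = 0.00106, limma) and CAP2, an actin regulator, with 2.69 (adjusted p = 0.00195), and the smallest was ENAH with 0.71 (adjusted p = 0.0160).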

How the data were processed

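The submitters' processing notes name UMI-tools, cutadapt, STAR, SAMtools and build hg19. The sources used here do not give versions or the caller of the clusters. Per the file headers, clusters are input-normalized. The authors deposited for each cluster a log2 fold over size-matched input, a −log10 p of that enrichment capped at 400 and, for tagged libraries, a browser score that was not used. The deposited reproducible lists pool both libraries of a group. Depth is unknown, so low folds are coarse.

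Members were taken by name from the deposited annotation. Libraries were grouped by title. Members and gene lists were chosen with earlier results of these data known. Clusters overlapped at 1 shared base on the same strand, and the one with the highest −log10 p gave the value. Coordinates are 1-based.

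Gene means and regions were compared with limma 3.58.1 (lmFit and eBayes, R 4.3.3) with Benjamini-Hochberg adjustment over all genes or regions at 0.05, and enriched counts with exact permutation tests. Intervals are exact Clopper-Pearson at 95%. Tables and figures used Python 3.11.15, pandas 2.3.3, SciPy 1.17.1 and matplotlib 3.10.9. The gene fit over 1424 genes was also tested on simulated data. There limma called 54%, 86% and 92% of 50 genes each shifted by 1, 2 and 3 on the log2 scale. It called 0% at 0.5 and 0.572% of 1224 unshifted genes. In the reported fit missing tagged clusters were set to 0. The median gene mean was 0.02 with the mutant and 2.22 with wild type. Whether these rates hold for mutant means kept so near 0 was not tested.

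Sites were named by rule: per gene the 6 strongest endogenous reproducible peaks, sites at exons, UTRs or splice sites enriched in both endogenous libraries, regions past the threshold, and sites enriched in a mutant library. The other places named (the SLIT2 3′ UTR, the hsa-mir-218-1 clusters, the fourth stretch of ROBO1, chr4:20526987, chr4:20621439, chr4:20432188, chr3:79254089, chr3:78879815 and chr3:79518394) were chosen after their values were seen. Same-numbered libraries did not deviate together (r = -0.03 over genes), and the reported fit does not pair them. With 2 libraries a group this is a single correlation, which cannot show whether they share a culture or day. Site sequences of hg19 were not used here.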

Additional observations from a re-analysis of the deposited data

How the results depend on the processing

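The wild type minus mutant difference in gene mean kept its direction and stayed under an adjusted p of 0.05 in 15 of 16 alternatives for each gene, from 1.61 to 3.04 for SLIT2 and from 1.46 to 2.23 for ROBO1; these include the joining of peaks into sites, chosen after seeing the data. Centring each library on its median reversed both, to -0.14 (adjusted p = 0.426) and -0.47 (adjusted p = 0.142); by construction this removes the shift shared by all genes. Leaving out each library in turn gave 1.97 to 2.16 for SLIT2 and 1.46 to 2.00 for ROBO1, with the lone library of a group assumed to vary like the other group. With the replicate number as a block, the differences were 2.07 and 1.73 (adjusted p = 0.000929 and 0.00185), and 1366 genes and 42 regions were called; the block changed no call at SLIT2 or ROBO1.

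Of the genes called, 1346 in the reported fit, 219 of 276 were called with listed clusters only, 2877 of 3865 with at least 1 peak, 204 of 206 with at least 10, 744 of 772 with peaks of at least 4 in log2 fold, and 344 (150 higher, 194 lower) with centring. Of the regions, 37 in the reported fit, 6281 of 12409 were called with missing clusters at 0, 58 of 1972 with a −log10 p of at least 2, 72 with centring, and 4 to 73 with a library left out. Without wild type 1 or 2 the number was 73 or 58, and without mutant 1 or 2 it was 4. The excess of enriched clusters in wild type was 10 at SLIT2 and 4 at ROBO1. It was 22.5 and 7 with the fold threshold at 2, 5.5 and 2.5 with it at 4, and at ROBO1 1.5 with a −log10 p of at least 5. With a library left out it was 10 to 10 at SLIT2 and 3.5 to 4.5 at ROBO1. The exact p stayed at 0.33, which 2 against 2 cannot pass, so it says nothing about stability.

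Beyond these settings, 2 libraries a group, an unknown depth and tagged lists that stop at input limit what low folds can show. Endogenous values were used to choose the genes, and the binding of tagged protein was measured in cells not stated to lack their own QKI.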
